A study of Homo sapiens with 2 samples.

Results

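Shelterin is the protein complex that covers the ends of human chromosomes, and its genes, together with those of 3 partner proteins, are described here as they were transcribed in BJ cells. The members were taken by gene symbol from a list that was chosen with earlier results of these data known. They were the 6 shelterin genes TERF1, TERF2, TERF2IP, TINF2, ACD and POT1. With them stood the genes CTC1 and STN1 of the CST complex, and the helicase gene RTEL1. All 9 had a value among the 12353 genes of the deposited table, whereas 59.8% of RefSeq protein-coding genes had one. Because of how the list was chosen, this contrast is not a result about the members. BJ cells are a widely used line of human skin fibroblasts. They were left untreated in medium with 10% serum, and the labels mention no added gene. The assay was GRO-seq (global run-on sequencing), in which engaged RNA polymerases extend their transcripts in isolated nuclei with a brominated nucleotide and the labelled RNA is captured and sequenced, so that a value reports polymerase engaged on a gene and not the amount of mRNA.

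Telomeres are tandem DNA repeats that end in a single-stranded overhang. TRF1 and TRF2, the products of TERF1 and TERF2, bind the duplex repeats, and RAP1, from TERF2IP, binds TRF2. TIN2, from TINF2, joins TRF1 and TRF2 to TPP1, from ACD, which carries POT1, the binder of the overhang. CST, made of CTC1, STN1 and TEN1, recruits DNA polymerase alpha-primase to fill in the complementary strand, and RTEL1 unwinds the loop that the overhang forms and other structures in telomeric DNA. TERT is the catalytic subunit of telomerase, which lengthens the repeats; in most adult somatic cells its gene is silent or nearly so.

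The series holds 1 group with 2 libraries, labelled as biological replicates and called library a and library b here, and no second condition, so no p-value was computed. Values are FPKM (fragments per kilobase of length, scaled to library size), and each error is the SD of the 2 library values (n = 2). Levels were compared between genes on this scale. The length that the authors divided by, whole gene or exons, is unknown, and comparisons between genes depend on it. The table gives no counts, so its depth is unknown. Ranks, medians and shares of all genes refer here to the 12353 genes with a value. The median gene stood at 11.76 FPKM (library a) and 11.7 FPKM (library b), and the quartiles of the mean over all genes were 6.295 and 22.2. Of the fibroblast markers, 10 of 10 had a value, from 7.34 to 649 FPKM. Of 5 melanocyte markers, 3 had one, namely MLANA, PMEL and SOX10, from 3.165 to 22.4 FPKM. Of 5 markers of keratinocytes and epithelia, only CDH1 had one, at 1.49 FPKM. All endothelial and leukocyte markers were without a value.

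Among the shelterin genes, TINF2 stood far above the others. It had 105 FPKM (library a) and 114 FPKM (library b), a mean of 109.5 ± 6.25 that was 9.36 times the median gene and above 97.8% of all genes. Its level exceeded the sum of the other 5 shelterin genes, 75.04 FPKM, by a factor of 1.46, with factors of 1.45 (library a) and 1.47 (library b). TINF2 thus held 59.3% of the summed shelterin FPKM. Its neighbour GMPR2, on the opposite strand, had 72.4 FPKM, and it is unknown whether strand was used in the counting. The part of GMPR2 in the TINF2 value, and so in these factors, was not tested. The next genes were ACD, with 22.04 and 22.91 FPKM (22.5 ± 0.615), and TERF2IP, with 20.1 and 23.0 FPKM (21.6 ± 2.08). They stood near the upper quartile of the table, above 75.5% and 74.1% of genes. RefSeq names 1 pseudogene of TERF2IP, TERF2IPP1, whose part in the TERF2IP value was not tested.

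The duplex-repeat binders were transcribed at the level of a typical gene. TERF1 had 11.5 and 14.6 FPKM (13.1 ± 2.21), and was below the median gene in library a and above it in library b. RefSeq names 7 pseudogenes of TERF1, and it is unknown whether reads that match more than 1 place were counted, so this value is uncertain. TERF2 had 12.05 and 11.8 FPKM (11.9 ± 0.198), above 50.8% of genes. POT1 was the lowest shelterin gene, with 6.74 and 5.29 FPKM (6.015 ± 1.03), above 23.7% of genes. The shelterin genes thus spanned an 18.2-fold range.

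**Figure D1:**
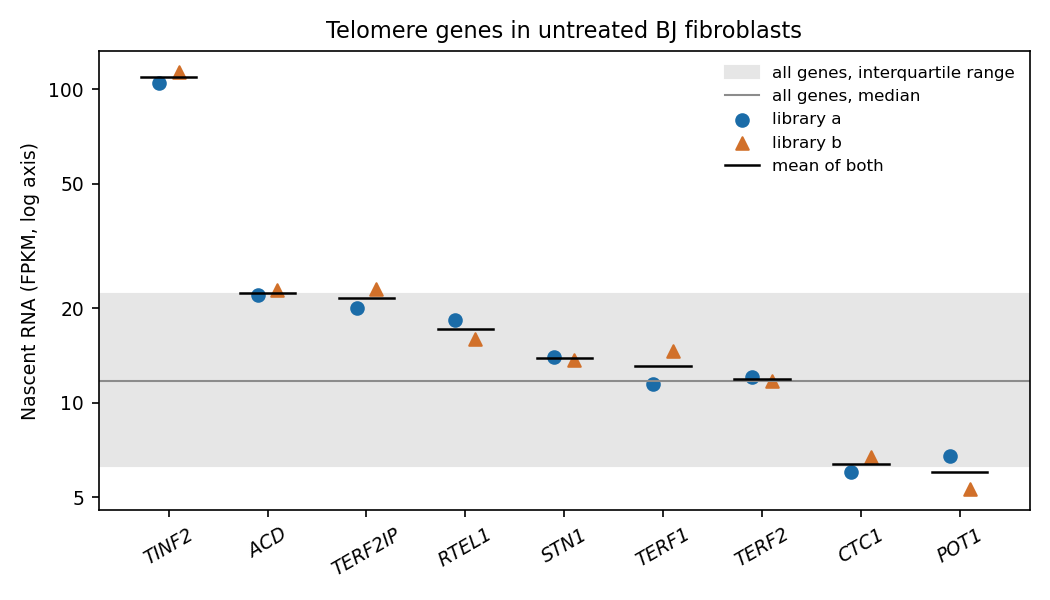
Nascent RNA (FPKM, log axis) of the 9 genes in each library (points), with the mean of both (black bars) and the median and interquartile range of all genes (grey line and band), in order of level. TINF2 lies at 105 and 114 FPKM, and CTC1 and POT1 lie about the lower edge of the grey band at 6.295 FPKM.

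The promoter windows of the 3 highest shelterin genes and of the lowest show what the start regions of genes so far apart in level have in common and where they differ. Each runs from 250 bases before to 50 bases after an annotated start, read 5′ to 3′ on the gene's strand, from RefSeq on GRCh38.p14, whereas the FPKM values were made on hg19. Capitals mark the motifs searched on both strands: GGGCGG (GC box), CCGGAA (core of ETS factor sites), CCAAT, TGACGTCA (cyclic AMP response element), TATAAA and TTAGGG (the telomere repeat unit). The TINF2 window (first of 2 annotated starts) is chr14:24242625-24242924 on the minus strand, the ACD window chr16:67660211-67660510 on the minus strand, the TERF2IP window chr16:75647523-75647822 on the plus strand and the POT1 window chr7:124929776-124930075 on the minus strand.
TINF2: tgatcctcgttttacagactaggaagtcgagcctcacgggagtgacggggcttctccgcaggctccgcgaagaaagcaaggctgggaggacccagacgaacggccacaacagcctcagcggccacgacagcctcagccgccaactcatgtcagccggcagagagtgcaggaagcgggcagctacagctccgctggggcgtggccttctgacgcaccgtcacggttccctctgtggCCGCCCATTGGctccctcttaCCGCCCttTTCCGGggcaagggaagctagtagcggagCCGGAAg
ACD: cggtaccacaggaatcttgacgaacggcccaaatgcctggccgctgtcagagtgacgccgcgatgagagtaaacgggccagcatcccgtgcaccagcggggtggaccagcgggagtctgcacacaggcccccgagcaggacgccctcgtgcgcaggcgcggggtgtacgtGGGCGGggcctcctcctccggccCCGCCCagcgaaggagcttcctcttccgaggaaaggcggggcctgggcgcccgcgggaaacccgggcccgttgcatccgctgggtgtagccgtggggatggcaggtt
TERF2IP: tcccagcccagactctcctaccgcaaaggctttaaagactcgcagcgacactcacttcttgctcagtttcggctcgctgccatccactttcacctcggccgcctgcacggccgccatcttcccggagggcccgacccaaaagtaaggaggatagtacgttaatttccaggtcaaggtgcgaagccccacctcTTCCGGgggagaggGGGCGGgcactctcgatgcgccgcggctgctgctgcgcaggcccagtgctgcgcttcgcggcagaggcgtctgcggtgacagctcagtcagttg
POT1: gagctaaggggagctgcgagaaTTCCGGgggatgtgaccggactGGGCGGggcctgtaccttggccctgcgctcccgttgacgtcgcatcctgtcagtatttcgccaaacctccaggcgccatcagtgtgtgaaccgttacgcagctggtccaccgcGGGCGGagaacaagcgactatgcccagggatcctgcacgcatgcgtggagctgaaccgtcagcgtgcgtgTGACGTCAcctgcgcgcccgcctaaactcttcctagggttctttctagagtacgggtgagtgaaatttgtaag

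Of the 9 genes, TERF2IP, TINF2, ACD, POT1, STN1 and RTEL1 had a window in the RefSeq table, 8 windows in all since TINF2 and RTEL1 had 2 annotated starts. The GC box was found in 7 of the 8 windows, against 65.3% of the 14536 windows of genes with a value and 45.0% of all 35116 windows. The STN1 window held 6 copies, each window of TINF2, ACD and POT1 held 2, TERF2IP held 1, and the first of the RTEL1 windows held none. The ETS core was found in 6 of 8 windows, against 26.7% of windows of genes with a value and 17.2% of all. Counted by gene, it was in 5 of 6. The motifs were chosen after the sequences were seen, so these counts are descriptions only. The TINF2 windows overlap each other and held the same 2 ETS cores, and their CCAAT motif, on the reverse strand, directly adjoins a GC box. The CCAAT motif occurred in the 2 TINF2 windows alone among the 8, against 34.8% of windows of genes with a value and 34.6% of all. TGACGTCA occurred in the POT1 window, beginning 23 bases before the start, and in 2.82% of windows of genes with a value and 1.85% of all. TATAAA and TTAGGG were in none of the 8 windows, against 6.40% and 8.68% of windows of genes with a value and 11.5% and 9.05% of all. GC content ran from 60.3% to 74.7% in the 8 windows, beside medians of 64.7% for genes with a value and 58.7% for all windows. These are matches of letters, not shown binding sites. TINF2 and POT1, the highest and lowest shelterin genes, both had a GC box and an ETS core, whereas ACD had a GC box and no ETS core. Whether the motifs bear on the levels was not tested.

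Of the CST genes, STN1 stood above CTC1. STN1 had 14.0 and 13.7 FPKM (13.9 ± 0.184), and CTC1, which encodes the large subunit, had 6.01 and 6.70 FPKM (6.355 ± 0.488). The third subunit gene, TEN1, which was not a member of the list, had 5.99 and 6.49 FPKM (6.24 ± 0.354), overlapping the ranges of CTC1 and POT1. CTC1 stood above 25.3% of genes and TEN1 above 24.7%. A read-through transcript, TEN1-CDK3, covers TEN1, and its part in the TEN1 value was not tested. The annotated span of CTC1 also holds 3 transfer RNA genes, made by RNA polymerase III, and overlaps that of its neighbour PFAS. The part of these genes in the CTC1 value was not tested.

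RTEL1 had 18.4 and 16.0 FPKM (17.2 ± 1.72), above 65.9% of genes. In the order of the 9 it lay between TERF2IP and STN1, with no overlap between the libraries on either side. A read-through transcript, RTEL1-TNFRSF6B, covers RTEL1 and its downstream neighbour TNFRSF6B, a decoy receptor gene, and RefSeq names 1 pseudogene, RTEL1P1. TNFRSF6B itself stood lower, at 8.90 and 7.23 FPKM.

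In order of level the 9 genes were TINF2, ACD, TERF2IP, RTEL1, STN1, TERF1, TERF2, CTC1 and POT1. Between neighbours in this order the libraries overlapped for ACD and TERF2IP, for STN1 and TERF1, for TERF1 and TERF2, and for CTC1 and POT1, so these pairs did not differ beyond their spread. At the other 4 steps the libraries did not overlap. The largest was TINF2 over ACD, 4.87-fold, followed by TERF2 over CTC1, 1.87-fold. Cut only at these largest steps, the levels form a top gene, a middle class of 6 genes within the range 11.9 to 22.5 FPKM, and the low pair of CTC1 and POT1. Inside the middle class the libraries also did not overlap for TERF2IP over RTEL1 (1.25-fold) and RTEL1 over STN1 (1.24-fold).

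Compared with all genes that had a value, the 9 were a little above the middle. By mean FPKM 7 of the 9 stood above the median gene, against 50.0% of all genes, and 2 were above the upper quartile, against 25.0%. By library the count above the median was 6 (library a) or 7 (library b), TERF1 being the gene that moved. Their median was 13.9 FPKM, against 11.7 for all genes. On the scale of log2(FPKM + 0.1) the median of the 9 lay 0.25 above that of all genes (0.25 and 0.32 by library, SD 0.0505), a factor of 1.19. The shelterin genes alone lay 0.52 above it, with 0.40 and 0.64 by library.

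Genes whose proteins bind each other or share a role were compared within each library as 9 pairs. The log2 ratio kept its sign in both libraries and exceeded 2 SD in 7 pairs, and was past 1.5-fold in both libraries in 6. The same counts were not made over other gene pairs, and several pairs share TERF2 or TINF2, so they are descriptions. Among 17570 pairs of a measured protein-coding gene and a nearest protein-coding neighbour, 46.1% had the gene higher and 45.9% lower, without overlap between libraries. That measure is not the 2 SD or the 1.5-fold measure, so it gives no share for these counts. TINF2 stood over both of the genes whose products it connects, 8.37-fold over TERF1 (log2 ratio 3.07 ± 0.160) and 9.12-fold over TERF2 (3.19 ± 0.106). ACD, whose product TPP1 TIN2 recruits, stood 4.85-fold under TINF2 (-2.28 ± 0.0430). ACD in turn stood 3.72-fold over POT1 (1.89 ± 0.282), whose product forms a heterodimer with TPP1. TERF2IP was 1.80-fold over TERF2 (0.85 ± 0.162), and CTC1 was 2.17-fold under STN1 (-1.11 ± 0.128). RTEL1 was 1.44-fold over TERF2 (0.52 ± 0.120), with 0.61 (library a) and 0.44 (library b). The paralogs TERF1 and TERF2 did not separate: their log2 ratio had opposite signs, -0.07 (library a) and 0.31 (library b), with a mean of 0.12 ± 0.267. POT1 and CTC1, both binders of the overhang, had 0.16 and -0.34 (-0.09 ± 0.352).

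**Figure D2:**
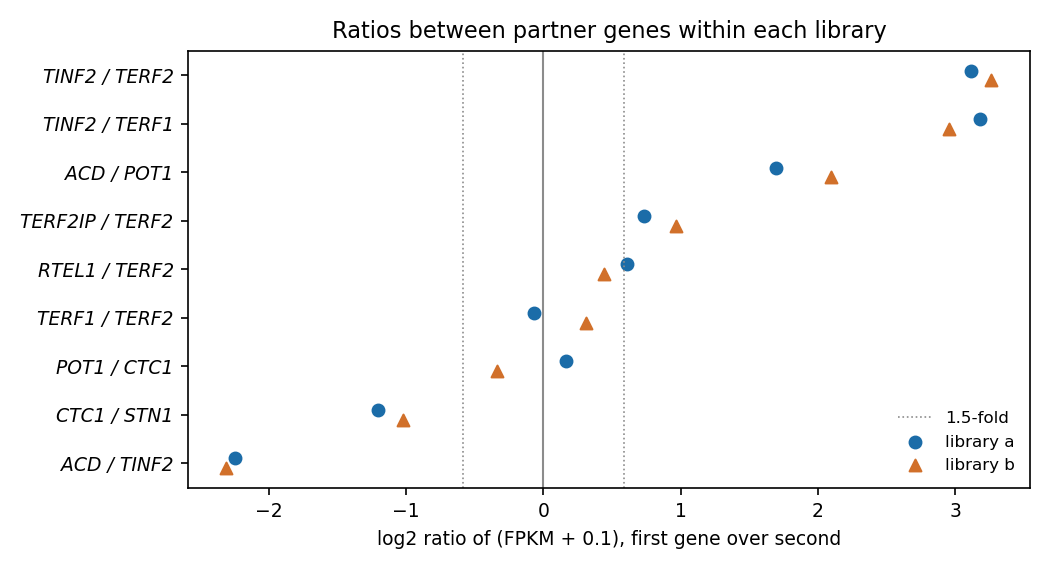
The log2 ratio of (FPKM + 0.1), first gene over second, for the 9 pairs in each library (points), with 1.5-fold marked by dotted lines. The 2 libraries lie on opposite sides of 0 for TERF1 over TERF2 and for POT1 over CTC1, and on the same side for the other 7 pairs.

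The replicates gave similar values for the 9 genes. None of the 9 differed by more than 1.5-fold between the libraries once the median shift of all genes was removed, against 2.16% of all genes, and 2 of the 9, TERF1 and POT1, differed by more than 1.2-fold, against 21.3%. The factor between libraries had a median of 1.13 for the 9 and ranged from 1.01 to 1.28, and its median over all genes was 1.10. POT1 was higher in library a and TERF1 higher in library b.

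**Figure D3:**
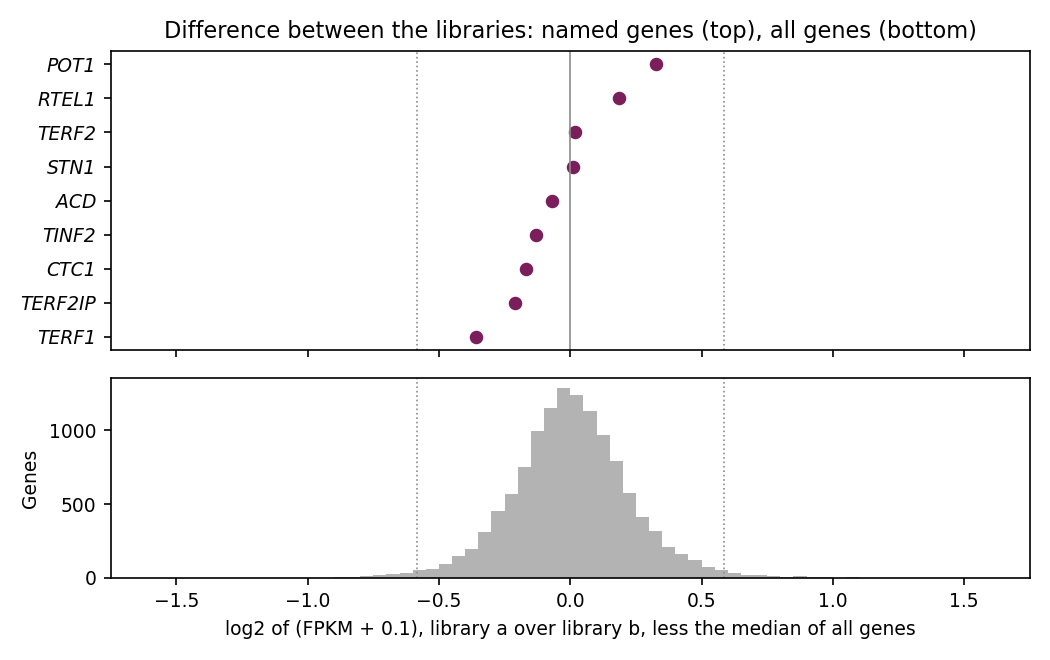
Difference between the libraries as log2 of (FPKM + 0.1), library a over library b, less the median of all genes, for the 9 genes (top) and as a histogram of all 12353 genes (bottom); dotted lines mark 1.5-fold. All 9 lie between the dotted lines, with POT1 farthest to the side of library a and TERF1 farthest to that of library b.

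TERT had a value. It stood at 6.07 and 7.13 FPKM (6.60 ± 0.750), above 26.6% of genes. The range of TERT overlapped those of CTC1 and POT1, so TERT did not differ from the lowest members beyond the spread. Derivatives of BJ that carry an added TERT gene exist, and the labels do not say whether these cells are such a line, so reads of an added copy and of the cells' own gene cannot be told apart. RefSeq also annotates 2 further protein-coding genes, without a value, that overlap the span of TERT, and their part in its value was not tested. The melanocyte and epithelial markers that also had a value, CDH1, SOX10, MLANA and PMEL, ranged from 1.49 to 22.4 FPKM. The other listed markers of these cell types, and all those of endothelium and leukocytes, had none. What these values mean for that of TERT was not tested. TERC, the RNA subunit of telomerase, had no value.

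The other 10 measured genes of telomerase and its assembly were mostly above the typical gene, and 7 of the 11 with TERT included stood above the median. Their median was 21.3 FPKM, a factor of 1.82 over all genes on the log2 scale. NOP10, a subunit of the ribonucleoprotein core, was highest at 48.9 ± 7.14 FPKM, followed by WRAP53, which encodes the protein that takes telomerase to Cajal bodies, at 43.8 ± 2.14. SHQ1, an assembly factor of the core subunit dyskerin, was lowest after TERT, at 7.475 ± 1.45 FPKM. Both NOP10 and WRAP53 lay above every one of the 9 genes except TINF2.

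The genes of DNA polymerase alpha-primase, the enzyme that CST recruits, were mostly as low as CTC1. POLA1, the catalytic subunit, stood at 6.18 ± 0.863 FPKM and PRIM1, the primase, at 5.905 ± 0.233, whereas POLA2, the second subunit, reached 29.1 ± 1.07. PRIM2 had no value. With TEN1, 1 of the 4 measured genes of this list stood above the median gene.

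Of the genes for processing of the end and for control of shelterin binding, 4 of 11 stood above the median gene and 7 below, with a median of 10.025 FPKM. ERCC1, part of a nuclease that can trim the overhang, was highest at 25.3 ± 1.17 FPKM, followed by DCLRE1B, the nuclease Apollo that TRF2 recruits, at 17.3 ± 0.764. DCLRE1B was thus above its recruiter TERF2. MRE11, the nuclease of a break-sensing complex, stood at 3.58 ± 0.552 and SAMHD1, a nucleotide hydrolase, at 2.59 ± 0.382, both below all 9 telomere genes. PINX1 had no value.

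Of the other helicases that act at telomeres, 2 of 5 stood above the median gene. BRIP1 was at 16.7 ± 1.56 FPKM and PIF1 at 16.1 ± 3.92, near RTEL1, whereas WRN was at 6.09 ± 0.0566 and BLM at 3.105 ± 0.262. PIF1 had the largest factor between libraries of all genes in these lists, 1.43, with 13.3 FPKM (library a) and 18.9 FPKM (library b).

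Damage signalling and end-joining factors, which shelterin keeps from acting on telomeres, had a median of 13.3 FPKM, with 5 of 9 above the median gene. The Ku genes XRCC6 (30.7 ± 2.05) and XRCC5 (26.9 ± 1.26) were highest, and the kinase genes ATM (5.34 ± 0.0990) and ATR (5.28 ± 0.580), whose signalling TRF2 and POT1 hold back, were lowest and close to POT1. Genes of telomeric chromatin and repeat binding had a median of 18.1 FPKM, with 6 of 8 above the median gene. NR2F2, an orphan nuclear receptor that can bind variant repeats, reached 63.5 ± 2.43 FPKM and DAXX, a histone chaperone, 35.6 ± 0.0636. Its partner ATRX was lowest at 4.63 ± 0.170, and HMBOX1, a repeat-binding homeobox gene, was at 11.3 ± 0.495. Of the genes for turnover of shelterin proteins and nucleolar binding, 3 of 7 were above the median gene, from GNL3 (45.8 ± 0.778), nucleostemin, and NEK7 (25.7 ± 4.09), a kinase, to GNL3L (8.92 ± 0.537) and FBXO4 (4.775 ± 0.601), a ubiquitin ligase subunit that targets TRF1.

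**Figure D4:**
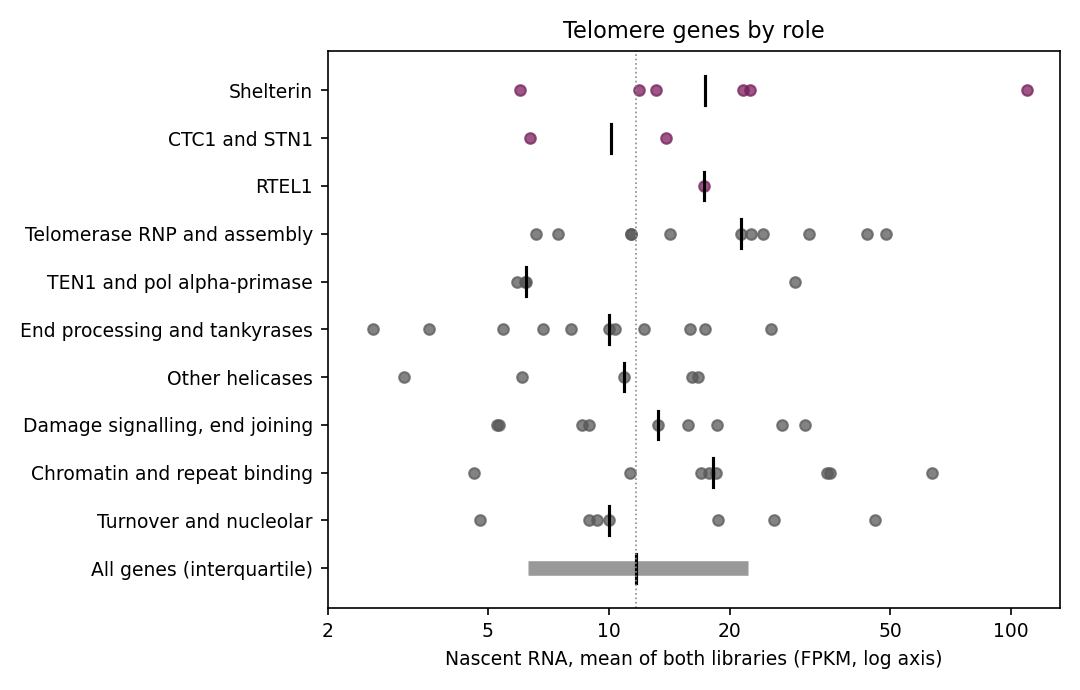
Mean FPKM over both libraries (log axis) of each measured gene, by role; purple points are the 9 telomere genes, grey points the other lists, black bars the list medians, and the bottom row the median and interquartile range of all genes. TINF2 at 109.5 FPKM is the highest point, above NR2F2 at 63.5.

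Across these lists 55 of 58 other telomere genes had a value, beside 59.8% of RefSeq protein-coding genes. These lists too were chosen with earlier results of these data known, so this contrast is not a result about them. Of the 55, 28 stood above the median gene and 27 below, with a median of 12.2 FPKM against 13.9 for the 9. None of the 55 was as high as TINF2, and they ranged from 2.59 to 63.5 FPKM.

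The genes beside the telomere genes on the chromosome were compared next. Of 18 nearest protein-coding neighbours 14 had a value. The telomere gene was higher in 9 of these and lower in 4 with no overlap between libraries, and overlapped its neighbour in 1. Over all 17570 such pairs of measured protein-coding genes, 46.1% were higher and 45.9% lower without overlap, so separation from a neighbour is the usual case. On chromosome 14, TINF2 stood 25.7-fold above TGM1 (4.26 ± 0.396), a keratinocyte transglutaminase gene, but only 1.51-fold above GMPR2 (72.4 ± 4.84), a guanosine monophosphate reductase gene on the opposite strand. Whether strand was used in the counting is unknown, so reads that continue from GMPR2 toward TINF2 cannot be told apart from reads of TINF2. The part of GMPR2 in the TINF2 value was not tested.

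On chromosome 16, TERF2IP and KARS1, which encodes lysyl-tRNA synthetase, point away from each other and their promoter windows share 207 bases. Their levels overlapped, at 20.1 and 23.0 FPKM for TERF2IP and 24.05 and 21.5 for KARS1. ACD was 1.66-fold above PARD6A (13.6 ± 1.46), a polarity gene on the opposite strand, and 2.63-fold above CARMIL2 (8.55 ± 0.410), whose span overlaps its own. TERF2 stood below both of its neighbours, TMED6 (13.85 ± 0.735) and CYB5B (20.8 ± 1.79).

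CTC1 stood far below the mitotic kinase gene AURKB, 94.955 ± 10.2 FPKM, and also below PFAS, a purine synthesis gene, 8.215 ± 0.0919. STN1 was above SH3PXD2A (10.6 ± 1.53) and SLK (6.235 ± 0.799). POT1, though lowest of the 9, was 2.53-fold above GPR37 (2.375 ± 0.0212), and TERF1 was 4.77-fold above SBSPON (2.74 ± 0.778). KCNB2, CPHXL2, GRM8 and STMN3, the remaining neighbours, had no value.

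**Figure D5:**
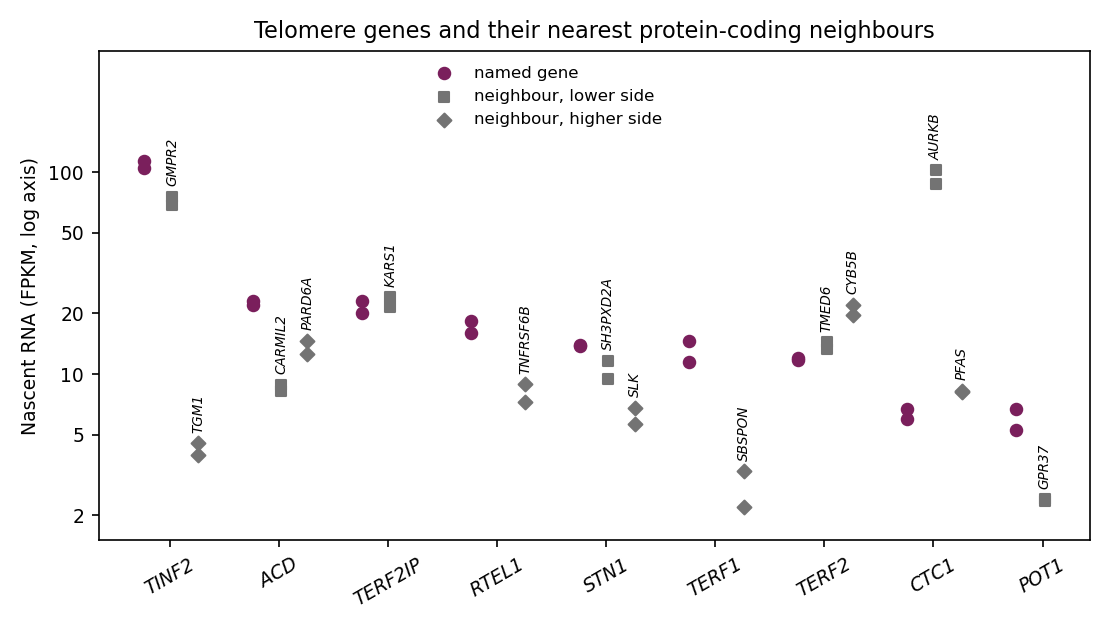
FPKM (log axis) in both libraries of each of the 9 telomere genes (purple) and of its nearest protein-coding neighbours with a value (grey squares on the lower coordinate side, diamonds on the higher side). CTC1 and TERF2 lie below both neighbours, and TINF2 lies close to GMPR2 and far above TGM1.

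Over the 2 libraries the genes whose log2 values lay nearest to those of TINF2 were RHOB (105.8 and 113 FPKM), ACP4 (106 and 117) and TAGLN (107.8 and 115), at distances of 0.0128 to 0.0406 log2 units. Nearest to POT1 were ARHGAP18 (6.79 and 5.29), ZNF28 (6.81 and 5.35) and XAF1 (6.77 and 5.38), at 0.0105 to 0.0247. With 2 libraries of 1 condition this likeness is one of level only.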

How the data were processed

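Nascent RNA of 2 libraries of untreated BJ cells was analysed. The authors deposited FPKM values per Ensembl gene; the submitters' processing notes list Bowtie2, HTSeq and hg19 and no version. Settings for gene length, scaling total, multi-mapping and strand were not given in the sources used here. Values began at 0.29 and 0.27 FPKM, so a gene without a value is described only as having none. The columns, ending in a and b, show the group and no replicate number. No common ratio between the columns appeared (at most 20 of 3520 genes over 20 FPKM in a narrow bin), so depth could not be read and no counting interval is given.

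An Ensembl name table gave symbols for 12202 of 12353 identifiers. RefSeq on GRCh38.p14 gave gene classes, neighbours, overlaps of gene spans and the promoter windows with their positions; the FPKM values were made on hg19, so overlaps may differ there. Log values used a pseudocount of 0.1. Calculations used Python 3.11.15, pandas 2.3.3 and numpy 2.4.6, and were tested on simulated data. With 1 group, levels, ratios and ranks are descriptions. Named genes are the members, TERT, TEN1, the 2 highest and 2 lowest of each other list and those without a value, the neighbours, and the 3 genes nearest in level to the highest and lowest member. The members and lists were chosen with earlier results of these data known, and the promoter motifs after the sequences were seen. The alternatives tried were other pseudocounts, rescaling, quantile normalization, other gene backgrounds, list means and leaving out each library.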

Additional observations from a re-analysis of the deposited data

How the results depend on the processing

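The count of 7 of 9 genes above the median gene was the same under rescaling to an equal sum over nuclear genes, quantile normalization, a minimum mean FPKM of 1 and a background of protein-coding nuclear genes, and was 6 or 7 when a library was left out. The log2 difference of 0.25 between the median of the 9 and that of all genes was 0.47 with the mean over the 9 in its place. In that mean TINF2 entered with a log2 value of 6.78 and the others with 2.60 to 4.50. The mean without TINF2 was not computed. The difference was 0.25 to 0.32 when a library was left out, and under the other alternatives it stayed within 0.23 to 0.25. The count of 6 pairs past 1.5-fold was 6 under the other scalings and pseudocounts, and 6 or 7 by library. None of the 9 genes was past 1.5-fold between libraries under any alternative, whereas the count over all genes, 267, was 118 with a pseudocount of 1, which shrinks the ratios of low genes. No paired analysis was possible because the series has 1 group. The unknown depth limits most the values of low genes such as POT1, CTC1 and TERT.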
